A study of Mus musculus with 4 samples.

Results

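Hox genes encode homeodomain transcription factors, and the 38 Hox genes described here were followed through 4 libraries of single cells from the C57BL/6 mouse aorta. They are 38 of the 39 genes that carry a Hox name among the 27998 genes of each file, with 10, 10, 9 and 9 in the Hoxa, Hoxb, Hoxc and Hoxd clusters, and 1 gene is not reported. The rule uses names and no measured values, although it was set with earlier results of these data known. Intima of the aged descending aorta filled 2 libraries (descending a and descending b), each pooled from 6 mice. A single library held intima from the arch of young animals, with 8 mice pooled, and another held aged adventitia, the outer layer of the vessel wall, whose number of mice is not given in the sources used here. The intimal cells were freed with trypsin and a microscalpel from opened vessels, in the presence of actinomycin D, which blocks transcription. The labels give the same protocol, which removes the adventitia, for the adventitial library too, so how its cells were prepared is not clear. Ages come from the sample titles as young and aged, with no age in weeks. The arch library is young and the descending libraries are aged, so region and age cannot be told apart in any comparison of them, and the arch and the adventitia each have 1 library. Nothing in the labels says that descending a and b come from separate experiments, so p-values measure only how far these samples differ from each other, and that may be technical.

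In mammals the Hox genes lie in clusters on separate chromosomes, and a gene's paralogue group number gives its place along the cluster. In the embryo, genes with low numbers are switched on near the head and genes with high numbers toward the tail, and adult cells often keep part of that pattern. Hox proteins bind DNA together with Pbx, Meis and Pknox proteins, called TALE cofactors, while Polycomb complexes keep unused Hox genes silent and retinoic acid helps to switch on the genes at the low-numbered end. In GRCm38 (GENCODE M21) the 10 Hoxa members span chromosome 6, 52162417 to 52260880, on the minus strand. The Hoxb members span chromosome 11, 96194316 to 96368256, the Hoxc members chromosome 15, 102921103 to 103036852, and the Hoxd members chromosome 2, 74668310 to 74765142, all on the plus strand. A level is given in CPM: the unique molecular identifiers (UMIs, each standing for 1 captured RNA molecule) of a gene, divided by all UMIs of the same cells and scaled to the usual common total. Reads were taken at transcript ends and capture differs between genes, so a gene's level is compared across libraries and cell classes and not with that of another gene.

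The region before the transcript start shows the sequence context of genes that behaved differently between arch and descending intima below. RefSeq (GRCm38.p6) gave promoter windows for 22 of the 38 genes. The windows of Hoxa2, which did not pass the test between arch and descending endothelium, and of Hoxb8 and Hoxa9, which were lower in the arch, are printed here, as the 250 bases that end just before the transcript start. They lie at chr6:52164832-52165081 (minus strand) for Hoxa2, chr11:96281655-96281904 (plus strand) for Hoxb8 and chr6:52227371-52227620 (minus strand) for Hoxa9, outside every annotated exon and UTR. The Hoxa9 window lies inside the GENCODE span of that gene (52223100 to 52231089), so it does not precede the outermost annotated start. Capitals mark a match to TGATNNAT, a composite site of Pbx and Hox proteins, searched on both strands.
Hoxa2: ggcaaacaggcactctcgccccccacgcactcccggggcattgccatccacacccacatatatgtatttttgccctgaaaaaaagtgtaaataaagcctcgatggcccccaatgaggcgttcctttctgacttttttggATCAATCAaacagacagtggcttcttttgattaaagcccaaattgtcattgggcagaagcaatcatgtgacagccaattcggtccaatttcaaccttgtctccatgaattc
Hoxb8: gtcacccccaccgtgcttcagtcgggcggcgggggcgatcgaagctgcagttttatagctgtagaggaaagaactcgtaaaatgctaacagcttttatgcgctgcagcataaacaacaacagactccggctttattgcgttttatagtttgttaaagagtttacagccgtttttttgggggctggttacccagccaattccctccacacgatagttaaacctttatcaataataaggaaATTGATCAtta
Hoxa9: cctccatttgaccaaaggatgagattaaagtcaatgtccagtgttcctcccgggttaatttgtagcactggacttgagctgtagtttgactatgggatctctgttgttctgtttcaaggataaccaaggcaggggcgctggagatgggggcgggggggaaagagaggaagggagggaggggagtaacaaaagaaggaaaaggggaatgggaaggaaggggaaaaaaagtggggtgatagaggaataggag
The Hoxa2 and Hoxb8 windows each hold 1 match, read here on the opposite strand, and the Hoxa9 window holds none. Of the 24 Hox windows, 4 (16.7%) hold the motif, against 7.68% of all 32851 windows of the same length. The Hox windows hold a median of 12.5 CG dinucleotides, against 6 over all windows. Within the 3 printed windows the CG count was 6 in Hoxa2, 12 in Hoxb8 and 3 in Hoxa9. A match is a description of the letters in this window, not a measured binding site.

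Of the 38 genes, 32 had at least 1 UMI in all barcodes and 6 had none: Hoxc11, Hoxc12, Hoxd1, Hoxd11, Hoxd12 and Hoxd13. A further 5 genes had fewer than 10 UMIs (Hoxa13, Hoxb1, Hoxb13, Hoxc13 and Hoxd3), so 11 in all fell under 10. Summed over the 38 genes, descending a held 8787 Hox UMIs (641 CPM), descending b 7674 (582 CPM), the arch 4048 (217 CPM) and the adventitia 3715 (126 CPM). Whole libraries differ in which cells they hold, so the rest of the account goes by cell class.

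Cells were clustered without the Hox genes and named from marker genes, which left 1988, 2091, 2114 and 7904 cells in descending a, descending b, arch and adventitia, at median depths of 5198.5, 4872, 6952 and 2476 UMIs per cell. Endothelial-like cells numbered 1462, 1285, 1243 and 374, fibroblast-like cells 337, 649, 436 and 1445, and macrophage-like cells 82, 70, 115 and 664. Each endothelial-like cluster carried 7 of 8 listed endothelial markers and each fibroblast-like cluster 8 of 8 fibroblast markers, while the 3 macrophage-like clusters carried 5 or 7 of 8. The same clusters did not hold the cells of each library: descending endothelium lay mainly in clusters 2, 8 and 9, arch endothelium in clusters 5 and 12, and adventitial endothelium in cluster 13, which was led by the capillary gene Gpihbp1. Intimal fibroblasts lay in cluster 1 and adventitial ones in clusters 6 and 11. Pairs of libraries shared 4 to 31 cell barcodes.

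Endothelial cells of the descending aorta had the highest summed Hox level of any named class with at least 20 cells in its library. It reached 717 CPM (95% exact Poisson interval 701 to 733) in descending a and 683 (666 to 700) in descending b, against 268 (259 to 277) in arch cells and 401 (369 to 435) in adventitial cells. Such intervals cover counting error only, since they treat UMIs of pooled mice as independent. In fibroblasts the summed level was 427 (398 to 457) and 426 (403 to 449) in the descending libraries, 171 (156 to 187) in arch cells and 331 (315 to 347) in adventitial cells. The descending mean was 2.61 times the arch level in endothelium and 2.49 times in fibroblasts. Macrophages, which derive from blood or embryonic precursors rather than from the vessel wall, stood at 80.6, 73.9, 43.0 and 33.5 CPM. The red cell-like clusters, which should hold few Hox transcripts, stood at 112 CPM in descending a (41 cells, 20 UMIs), 18.8 in the arch and 24.1 in the adventitia. Descending b, with 13 such cells, has no value. Macrophages lay below the red cell-like level in descending a and above it in the arch and the adventitia. The part of background RNA in these levels was not tested. Mesothelial-like cells, the lining of the outer surface, held 143 CPM in the arch (44 cells) and 210 in the adventitia (164 cells).

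Within the classes the share of Hox UMIs from the tail end of the clusters followed the same split. Groups 9 to 13 gave 20.4% (95% exact Clopper-Pearson interval 19.5 to 21.4) and 19.5% (18.5 to 20.5) of endothelial Hox UMIs in the descending libraries, 9.13% (8.15 to 10.2) in arch cells and 7.38% (5.37 to 9.85) in adventitial cells. In fibroblasts the shares were 7.44% (5.73 to 9.48), 4.06% (3.07 to 5.25), 1.50% (0.606 to 3.07) and 1.92% (1.32 to 2.70). In endothelium the descending mean exceeded the arch 1.78-fold for groups 1 to 4, 2.69-fold for groups 5 to 8 and 5.71-fold for groups 9 to 13. The same ratios in fibroblasts were 1.43, 3.51 and 9.55, the last from only 7 arch UMIs. At least 1 UMI of groups 9 to 13 was present in 51.2% and 47.0% of descending endothelial cells, 16.9% of arch and 9.63% of adventitial ones. With every cell thinned to 2000 UMIs, to set depth equal, the shares were 25%, 23.0%, 5.31% and 7.39%; this left out 48, 85, 0 and 90 cells. In the red cell-like clusters the share with such a UMI was 4.88% in descending a (2 of 41 cells, median depth 4239 UMIs), 0 of 55 cells in the arch (exact upper bound 6.49%) and 0 of 749 in the adventitia (0.491%). Cells with 3 or more UMIs of these genes made up 13.5% and 11.2% of descending endothelial cells and 1.29% of arch ones.

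**Figure D1:**
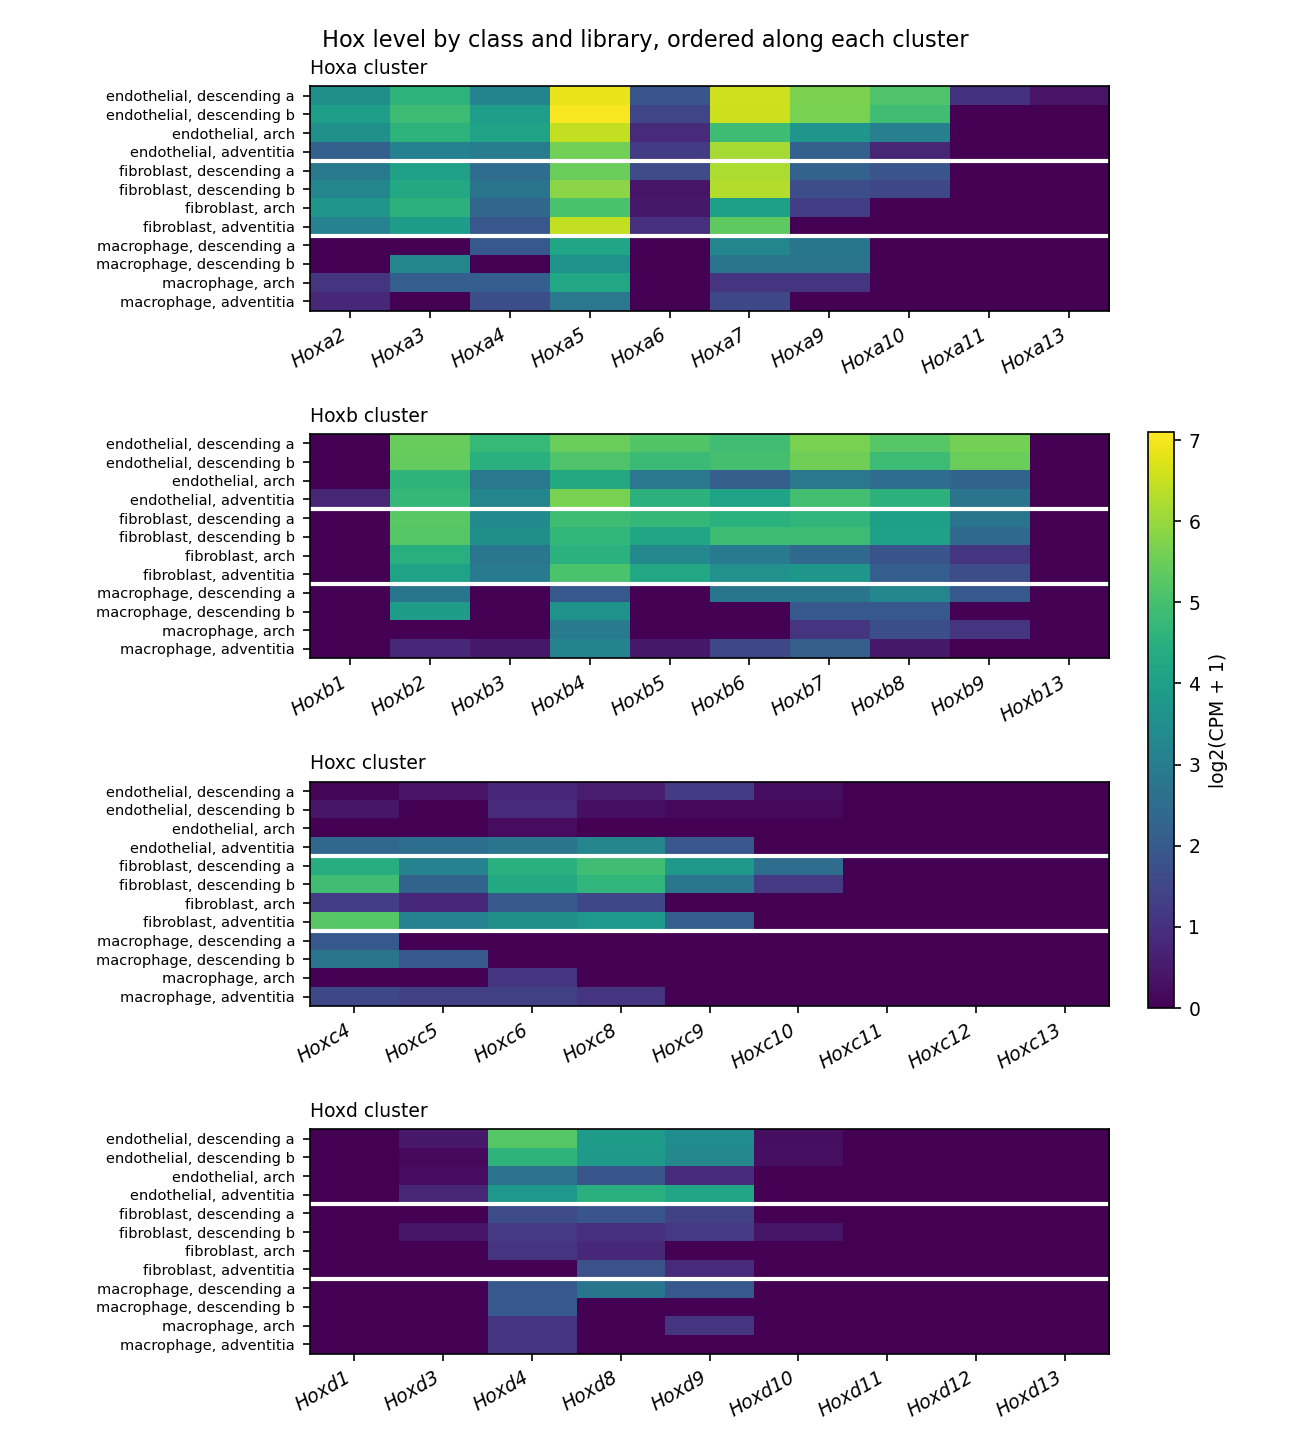
Level of each Hox gene as log2(CPM + 1), by colour, in each class and library (rows), with genes in cluster order (columns) for the Hoxa, Hoxb, Hoxc and Hoxd clusters. Endothelial rows of the descending libraries stay bright through Hoxa10 and Hoxb9, Hoxc is highest in the descending and adventitial fibroblast rows, with lower levels in adventitial endothelium, and macrophage rows are dark.

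Between arch and descending endothelium, 15 of 22 Hox genes that passed the low-count filter were lower in the arch and none was higher, in edgeR (quasi-likelihood test, Benjamini-Hochberg adjusted p under 0.05 over all 12985 genes). Over all genes 5.92% were called lower and 7.28% higher. The other 16 genes were too low to test. Of the 15, 13 passed the filter in both groups, while Hoxc9 and Hoxd9 passed it in the descending libraries only. Among the genes not called, Hoxa6 passed it in the descending libraries only, and Hoxc6 and Hoxc8 only in the adventitial library. The median below includes all of these. Marker levels moved with this result: summed endothelial markers were 8671 and 9039 CPM in the descending libraries and 6126 in the arch, smooth muscle markers 192 and 157 against 584, mesothelial markers 0.960 and 0.455 against 33.5, and fibroblast markers 1158 and 1448 against 1957. Their part in the Hox values was not tested. The median log2 fold change of the 22, arch over descending, was -2.04, or -1.92 with the 2 genes that had no arch UMI held at their bounds, and that of all genes was -0.01. DESeq2 kept 11 of the 15 lower calls, and the 4 it lost were Hoxb2, Hoxb3, Hoxb4 and Hoxc9. At an unadjusted p under 0.05 in edgeR, Hoxa4 was the 1 gene higher.

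All 8 Hoxb genes tested fell, and the fall was larger for the tail-end genes than for the head-end ones, though not gene by gene. Hoxb2, which patterns the hindbrain and facial nerve, read 42.8 and 41.8 CPM in the descending libraries and 23.6 in the arch, a log2 fold change of -0.77 (SE 0.17, adjusted p = 0.00011 in edgeR). Hoxb4, a regulator of blood stem cell expansion, read 43.9 and 34.0 against 18.7 (log2 fold change -0.99). Hoxb3 read 26.0 and 21.9 against 6.24, and Hoxb5, which acts in endothelial precursors, read 35.0 and 27.8 against 5.99. Both descending libraries were above the arch for each of these genes, which adds little to the calls. Hoxb6 read 29.3 and 30.9 against 3.41, Hoxb7 read 50.1 and 46.2 against 5.99, and Hoxb8 read 37.2 and 28.0 against 4.83. Hoxb9, which patterns the thoracic skeleton, read 48.2 and 43.6 against 3.83, a log2 fold change of -3.51 (SE 0.23, adjusted p = 5.49e-51 in edgeR). It was the gene furthest toward the tail end of the Hoxb cluster with more than a few UMIs, since Hoxb13 had 2 UMIs in all barcodes.

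The Hoxa cluster divided within itself. Hoxa2 and Hoxa3, which pattern the pharyngeal arches from which arch arteries form, did not pass the test. Hoxa2 read 10.7 and 14.6 CPM in the descending libraries and 10.8 in the arch (log2 fold change -0.14, SE 0.25), and Hoxa3 read 22.9 and 28.1 against 23.0 (log2 fold change -0.08, SE 0.18). The arch value lay between the descending values for both genes. Hoxa4 read 8.16 and 14.3 against 16.1 (log2 fold change 0.61, adjusted p = 0.0619 in edgeR), and Hoxa5, kept in quiescent adult endothelium, read 115 and 130 against 86.4 (log2 fold change -0.43, adjusted p = 0.0514). Neither passed the threshold, although the arch value lay outside both descending values for each. Hoxa6 had 28, 16 and 10 UMIs and did not pass. Hoxa7 read 94.4 and 92.7 against 29.0 (log2 fold change -1.62). Hoxa9, a regulator of endothelial activation genes, read 50.7 and 50.3 against 12.2 (-1.98), and Hoxa10 read 34.5 and 29.3 against 7.57 (-2.00). These 3 were called lower, and no descending library overlapped the arch, which adds little to the calls. Same-strand annotation overlaps with Gm28308 cover 15% of the exon bases of Hoxa2 and 8.01% of those of Hoxa3, so reads there may have been lost or split, which was not tested.

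The 3 tested Hoxd genes were all lower in the arch. Hoxd8, active in vascular and lymphatic endothelium, read 13.8 and 13.2 CPM against 2.75, and Hoxd9 read 9.89 and 9.22 against 0.832 (log2 fold change -3.43, SE 0.44). Hoxd4 read 36.5 and 23.3 against 5.49, with a spread between the descending libraries that left its log2 fold change between -2.65 and -2.01 as each was left out. Its exons share 52.3% of their bases with Hoxd3 and Gm28230, so its level is uncertain. Of the Hoxc genes, 3 were tested and 1 was called: Hoxc9 had 14 and 1 UMIs in the descending endothelium and 0 in the arch, at least 2.92-fold lower against a floor of 3 UMIs over the arch cells. Of its 15 descending UMIs, 14 came from descending a, and the call was lost under 5 alternatives, DESeq2 among them. The remaining tested Hoxc genes, Hoxc6 and Hoxc8, had 17 and 7 endothelial UMIs in the 3 intimal libraries. Along the paralogue groups Spearman's rho of the log2 fold change was -0.90 over 8 Hoxa genes and -0.88 over 8 Hoxb genes. Over the 20 tested genes of all clusters with UMIs in both groups it was -0.65. These values are given as a description, because the genes share libraries and cells. Of the genes included, Hoxa6 and Hoxd9 passed the low-count filter in the descending libraries only, and Hoxc6 only in the adventitial library.

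**Figure D2:**
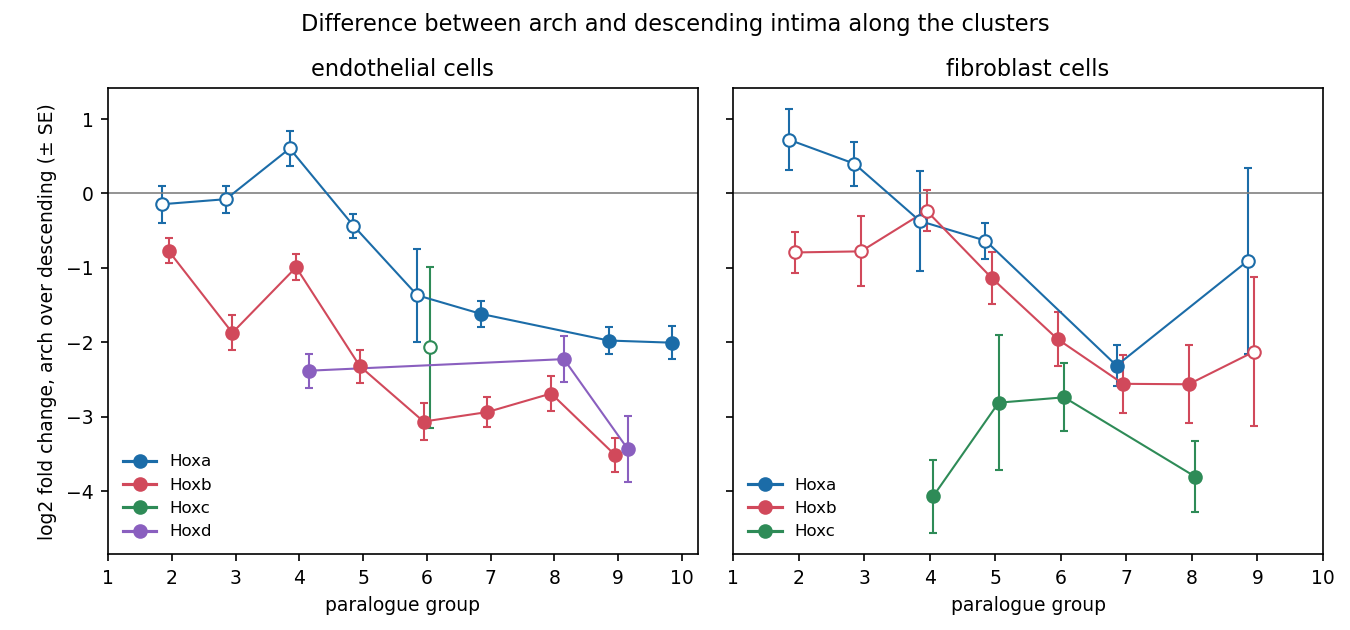
Log2 fold change (± SE), arch over descending, against paralogue group for endothelial (left) and fibroblast cells (right), for the tested genes with UMIs in both groups; filled points passed an adjusted p under 0.05 in edgeR and open points did not. In endothelium Hoxa2 and Hoxa3 lie near 0 and Hoxb9 lies at -3.51.

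Arch fibroblasts also had lower levels of Hox genes than descending ones. Of 19 genes tested, 10 were lower than in descending fibroblasts and none was higher, in edgeR with adjusted p under 0.05, against 2.23% of all 11544 genes called lower and 2.81% higher. At an unadjusted p under 0.05, 13 passed and none of them was higher. The median log2 fold change of the 19 was -1.96. It includes 6 called and 2 uncalled genes that passed the low-count filter only through the descending libraries. Those genes had to be low in the arch to enter, so the median is not a typical fall. DESeq2 called 3 of the 10, Hoxa7, Hoxc4 and Hoxc8, and gave no adjusted p for Hoxc5 and Hoxc9. All 5 tested Hoxc genes were called, but these and Hoxb8 passed the low-count filter only through the descending libraries, so 6 of the 10 had to differ to be tested. The 4 others, Hoxa7, Hoxb5, Hoxb6 and Hoxb7, passed it in both groups. Hoxc4 read 20.6 and 29.2 CPM in the descending libraries and 1.47 in the arch (log2 fold change -4.07, SE 0.49), and Hoxc8, which patterns thoracic and forelimb-level structures, read 29.1 and 24.5 against 1.83 (-3.80). Hoxc6 read 21.7 and 18.9 against 2.93, Hoxc5 7.94 and 3.77 against 0.734. Hoxc9 had 25 and 19 UMIs against 0, at least 8.72-fold lower. Hoxa7 read 74.1 and 77.3 against 15 (-2.31). No arch value reached a descending one for any of the 10 genes, which adds little to the calls, since the genes were picked by them. Hoxb5 read 25.4 and 17.0 against 9.17, Hoxb6 22.2 and 28.9 against 6.60, Hoxb7 24.3 and 28.0 against 4.40 (-2.56), and Hoxb8 15.3 and 15.7 against 2.57.

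Of the tested fibroblast genes, 9 did not pass. Hoxa2 read 6.35 and 8.48 CPM against 12.5, Hoxa3 15.9 and 18.5 against 22.7, and Hoxb4 28.6 and 25.1 against 22.4. Hoxa5 read 43.9 and 57.2 against 32.6 (log2 fold change -0.63, adjusted p = 0.125 in edgeR), and Hoxb2 38.1 and 36.8 against 21.3 (-0.79, adjusted p = 0.0661). Hoxb3 read 9.53 and 10.7 against 5.87, and Hoxa4 4.76 and 5.66 against 4.03. Hoxb9 had 11 and 14 UMIs against 3, and Hoxa9 had 7 and 7 against 4. None of these 4 genes passed. Too few to test were Hoxa10 (5 and 6 UMIs against 0), Hoxc10 (9 and 4 against 0), Hoxd4 (4 and 4 against 3), Hoxd8 (5 and 3 against 2), Hoxd9 (3 and 4 against 0) and Hoxa6 (4 and 1 against 1). Spearman's rho of the log2 fold change with paralogue group was -0.94 over 6 Hoxa genes, -0.83 over 8 Hoxb genes and -0.57 over 18 genes of all clusters. Hoxa9, Hoxb8, Hoxb9, Hoxc4, Hoxc5, Hoxc6 and Hoxc8 among them passed the low-count filter through the descending libraries only. They had to be low in the arch to be included, so these values are a description only. In a joint fit of both classes, no Hox gene differed between them in its arch difference (0 of 25 in edgeR and in DESeq2, where 3.43% of all genes were called in edgeR), and 6 reached an unadjusted p under 0.05 in edgeR. The closest was Hoxb5, with the arch difference less negative in fibroblasts by 1.16 on the log2 scale (SE 0.40, adjusted p = 0.092), which misses the threshold.

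Endothelium and fibroblasts of the same intima both drew most Hox UMIs from Hoxa and Hoxb, and differed in the shares drawn from Hoxc and Hoxd. With 3 intimal libraries compared within library (library as a block), 5 of 24 tested Hox genes were higher in fibroblasts and 11 lower in edgeR at an adjusted p under 0.05, against 26.3% and 25.8% of all genes. The 5 higher ones were all Hoxc genes, and each passed the low-count filter in fibroblasts only, so they had to differ to be tested and their count supports nothing. Their values are given as a description. Hoxc4 rose by 6.90 on the log2 scale (SE 0.42), from 4 UMIs in all endothelial cells of these libraries to 136 in fibroblasts. Hoxc8 rose by 6.33, from 7 to 138 UMIs. Hoxc5 (log2 difference 5.33), Hoxc6 (4.74) and Hoxc9 (3.92) rose too. Hoxc genes gave 22.8% and 19.6% of fibroblast Hox UMIs in the descending libraries and 0.442% and 0.233% of endothelial ones. Arch fibroblasts held far less Hoxc, a sum of 6.97 CPM against 97.4 and 83.6 in the descending ones. In arch endothelium the sum was 0.166 CPM. Fibroblast markers are present as background in the endothelial sums, at 1158 to 1957 CPM in the intimal libraries against 24405 to 30081 in fibroblasts, and their part in the endothelial Hoxc UMIs was not tested.

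The 11 genes lower in fibroblasts were from the Hoxa, Hoxb and Hoxd clusters, and the log2 differences of Hoxa9, Hoxa10, Hoxb9 and the Hoxd genes were below -2. Hoxa9 read 3.70, 2.20 and 1.47 CPM in fibroblasts of descending a, descending b and arch, a log2 difference from endothelium of -3.79. The log2 difference was -3.85 for Hoxa10, -2.89 for Hoxb9, -3.64 for Hoxd4, -2.69 for Hoxd8 and -2.65 for Hoxd9. Hoxd9 passed the low-count filter in endothelium only, so it had to differ to be tested. Hoxa4, Hoxa5, Hoxb3, Hoxb7 and Hoxb8 fell too, with log2 differences between -1.27 and -0.64. Hoxb2 (-0.01), Hoxb6 (0.13), Hoxa7 (-0.29) and Hoxa2 (-0.22) did not pass. Without the library block the counts were 2 higher and 7 lower, and with either descending library left out in turn 2 were higher. Endothelial markers stood at 566 to 751 CPM in intimal fibroblasts against 6126 to 9039 in endothelium, and their part in the low Hoxa9 and Hoxd values was not tested.

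**Figure D3:**
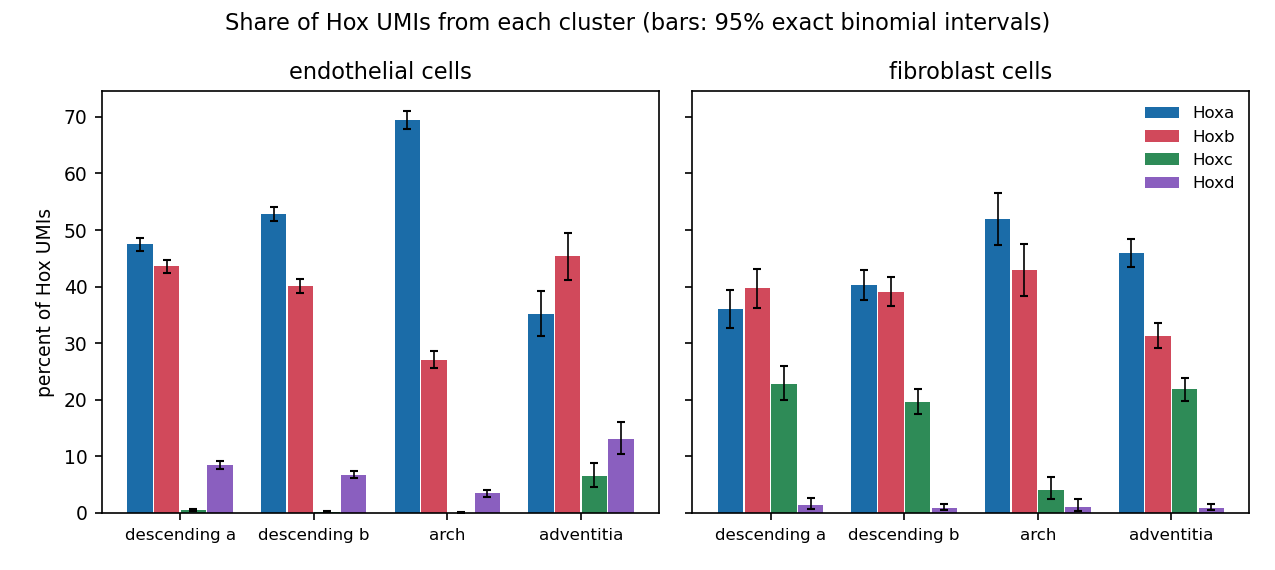
Percent of Hox UMIs that came from each cluster (bars, with 95% exact binomial intervals) in endothelial (left) and fibroblast cells (right) of each library. Hoxc makes 22.8% and 19.6% of descending fibroblast Hox UMIs and 0.0621% to 0.442% of intimal endothelial ones, and Hoxd makes 3.45% to 8.48% in intimal endothelium and 0.959% to 1.49% in fibroblasts.

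The adventitial library, aged like the descending intima, was compared class by class with the descending intima. Fibroblasts there had 2 of 19 Hox genes higher than descending intimal fibroblasts and 7 lower in edgeR, against 14.4% and 10.7% of all genes. Of the 7, Hoxa9 and Hoxb8 passed the low-count filter through the descending libraries only, and DESeq2 called none of these 9. Hoxa5 read 86.7 CPM against 43.9 and 57.2 (log2 fold change 0.92, SE 0.20), and Hoxc4 read 37.3 against 20.6 and 29.2 (0.71, SE 0.24). Hoxa7 (39.5 CPM), Hoxb2 (16.5), Hoxb6 (11.1), Hoxb7 (12.5), Hoxb8 (3.37) and Hoxc8 (12.9) were lower than in both descending libraries. Hoxa9 had no UMI in the 1445 adventitial fibroblasts, against 7 and 7 in the descending ones, at least 4.96-fold lower against the floor of 3 UMIs. The genes that did not pass were read as follows. Hoxa3 read 14.1 CPM, Hoxa2 7.93, Hoxa4 2.78, Hoxb3 6.55, Hoxb4 33.1, Hoxb5 18.2 and Hoxb9 2.18. In the Hoxc cluster Hoxc5 read 7.93, Hoxc6 10.7 and Hoxc9 3.37 without passing. Of the genes too low to test, Hoxd8 had 12 UMIs, Hoxa6 5 and Hoxd9 4, and Hoxa10, Hoxc10 and Hoxd4 had none.

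Adventitial endothelium, mostly a capillary-like cluster, had 11 of 22 tested Hox genes lower than descending endothelium in edgeR, against 19.2% of all genes. Hoxc6 and Hoxc8 were called higher (20.4% of all genes were), but both passed the low-count filter only through the adventitial library, where they are high, so this count supports nothing. Hoxa10 passed through the descending libraries only. DESeq2 kept 4 of the 11 (Hoxa5, Hoxa9, Hoxa10 and Hoxb9) and 1 of the 2 higher (Hoxc8). Hoxa10 was present as 1 UMI (0.705 CPM) against 34.5 and 29.3, and Hoxa9 read 3.52 against 50.7 and 50.3 (log2 fold change -3.75). Hoxb9 read 5.64 against 48.2 and 43.6. The other genes called lower were Hoxa2 at 3.52 CPM, Hoxa3 at 7.75, Hoxa5 at 47.2, Hoxb2 at 25.4, Hoxb3 at 8.46, Hoxb6 at 16.2, Hoxb7 at 30.3 and Hoxd4 at 12.7. Hoxa7 (69.8 CPM), Hoxb4 (50.0), Hoxb5 (22.6) and Hoxb8 (22.6) did not pass, nor did Hoxa4 (7.05) and Hoxa6 (2 UMIs). Hoxc8 read 8.46 CPM against 0.480 and 0.228, and Hoxc6 read 5.64 against 0.768 and 0.797. Hoxc9 had 4 UMIs and did not pass. Too low to test were Hoxc4, with 6 UMIs against 1 and 3, and Hoxc5, with 7 against 3 and 0, and neither had a UMI in arch endothelium. Hoxd8 (21.8 CPM) and Hoxd9 (16.9) were above both descending values without passing (adjusted p = 0.0567 and 0.0613). Of the 374 adventitial endothelial cells, 371 lay in cluster 13, a cluster without intimal cells, so the difference of layer and that of vessel type cannot be told apart.

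Macrophages had low Hox levels. Of 18 genes tested against endothelium over the intimal libraries, 17 were lower in edgeR, with 19.8% of all genes lower, and 4 of the 17 (Hoxa2, Hoxa10, Hoxb3 and Hoxb5) passed the low-count filter in endothelium only. Of these, Hoxa10, Hoxb3 and Hoxb5 had no UMI in the 82, 70 and 115 intimal macrophages against 707, 538 and 680 in endothelium. Macrophage Hoxa5 was 17.3, 11.4 and 18.1 CPM in the intimal libraries (both descending ones, then the arch) and 6.10 in the adventitia, where endothelial and fibroblast levels of this gene were 47.2 and 86.7. Hoxb4 read 2.88, 11.4 and 6.79 in the intima and 8.00 in the adventitia. Hoxa4, Hoxa7 and Hoxb7 had 1 to 9 UMIs in each library in which they were found. Hoxd9, at 2 UMIs, was the 1 gene tested that did not pass. Endothelial markers gave 847 to 990 CPM in intimal macrophages, and their part in the remaining Hox UMIs was not tested. Without the library block 11 were called.

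Inside the endothelium, clusters made without the Hox genes differed in Hox level, and these values are given without a test. Cluster 8, led by the alpha-2A adrenergic receptor gene Adra2a, reached 924 and 952 CPM in descending a and b, of which groups 9 to 13 made 207 and 220. Clusters 2 and 9 stood at 618 and 660, and at 603 and 559. The 66 and 100 descending cells of cluster 5, a cluster mainly of arch cells that is led by serine protease inhibitors and Dlx5, held 443 and 494 CPM, with 42.7 and 62.7 CPM of groups 9 to 13. In the same cluster the 738 arch cells held 255 CPM and 24.2. Hoxb9 read 72.4 and 85.6 CPM in cluster 8 and 7.77 and 13.8 in the descending cells of cluster 5, with 3.30 in the arch cells there. Hoxa5 varied less, from 94.8 to 156 CPM over the descending parts of these clusters. The head-end genes Hoxa3 and Hoxb2 read 20.9 to 35.1 and 31.4 to 48.6 CPM there.

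Arch cells outside the arch clusters were few: 45 in cluster 2, 3 in cluster 8 and 56 in cluster 9. Only the level of those in cluster 9 is given here, so it does not speak for the rest. The 56 arch cells in cluster 9 held 414 CPM (348 to 489) against 603 and 559 in the descending cells of that cluster, and 69.0 CPM (43.7 to 104) of groups 9 to 13 against 111 and 87.9. The 401 arch cells of cluster 12 held 270 CPM and 21.1. Among the rarest transcripts, Hoxa11 had 11 UMIs in 10 endothelial cells of descending a, 8 of them in cluster 8, and none elsewhere. Hoxa13 had 3 UMIs, also in descending a only. Descending b held none of either in 1285 endothelial cells, which allows up to 0.420 CPM (95% exact upper bound).

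**Figure D4:**
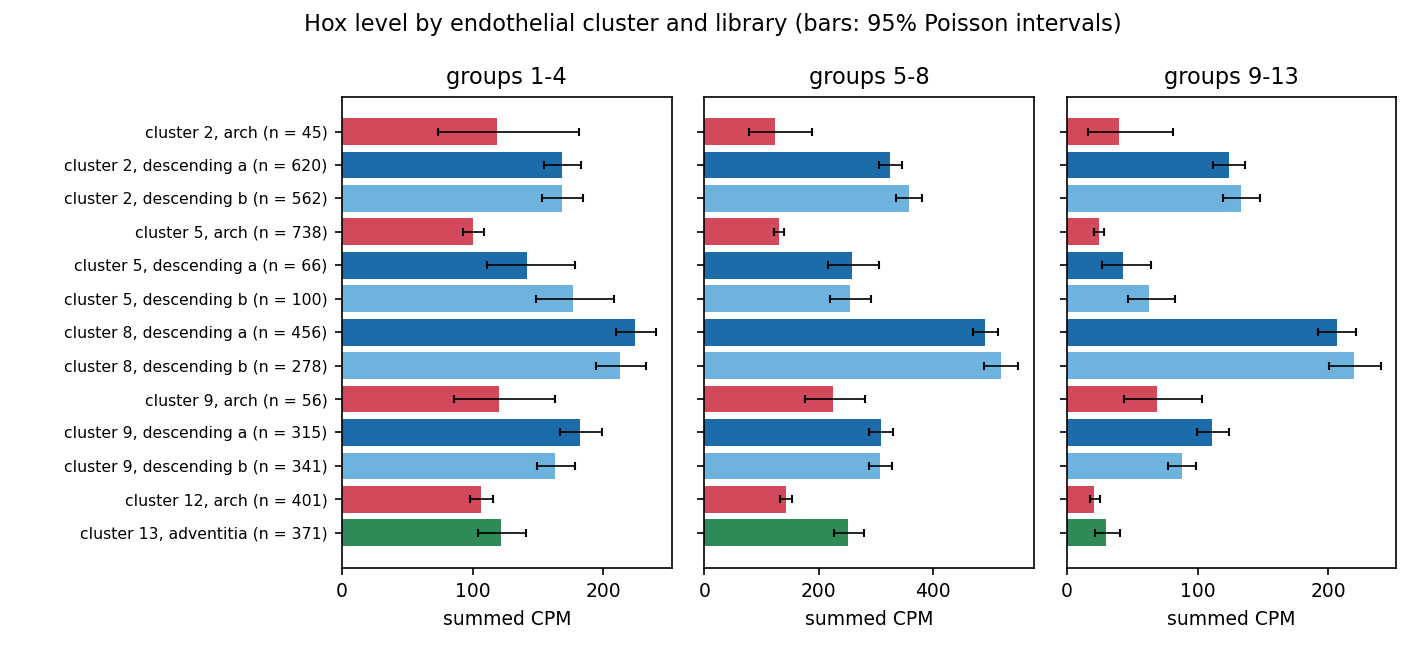
Summed CPM of paralogue groups 1 to 4, 5 to 8 and 9 to 13 (panels) in each endothelial cluster and library with at least 20 cells, with 95% exact Poisson intervals; the number of cells is in the row name. Cluster 8 has the highest groups 9 to 13 level in both descending libraries (207 and 220 CPM), and the arch cells of clusters 5 and 12 the lowest (24.2 and 21.1).

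Partners and regulators of the Hox genes were read from lists of known members. None of 11 TALE cofactors was called between arch and descending endothelium (none at an unadjusted p under 0.05) nor in fibroblasts (1 at an unadjusted p under 0.05), in edgeR. Over all genes 5.92% were called lower and 7.28% higher in endothelium, and 2.23% and 2.81% in fibroblasts. With so few cofactors, no calls is near those shares. Meis2 read 198 and 187 CPM in descending endothelium and 152 in the arch. In adventitial endothelium Meis2 was lower, at 11.3 CPM (adjusted p = 1.53e-46 in edgeR), where 19.2% of all genes were called lower. Of 6 tested Hox-cluster noncoding transcripts, 2 were lower in arch endothelium and none was higher, against 5.92% and 7.28% of all genes. Gm53, next to Hoxb9 on chromosome 11, read 6.53 and 5.47 CPM against 0.582 (log2 fold change -3.27). Hoxd3os1 read 14.7 and 17.0 against 5.41 (-1.47). Hotairm1, at the head end of Hoxa, did not pass (33.9 and 45.1 against 50.4). Strand use in counting is not given in the sources used here, so the share of Hoxd3os1 reads that belong to Hoxd3 and Hoxd4 was not tested.

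Of 26 Polycomb and trithorax genes tested in endothelium, 4 were lower and 1 higher in the arch (5.92% and 7.28% of all genes), among them Bmi1 at 15.7 CPM against 26.8 and 26.4 (log2 fold change -0.69, adjusted p = 0.00317 in edgeR), and in fibroblasts Bmi1 was the 1 of 25 called (-1.15), with 2.23% of all genes lower. In the retinoic acid list, 4 of 14 were lower and 1 higher in arch endothelium, against the same 5.92% and 7.28%. Cyp26b1, which degrades retinoic acid, read 23.7 and 7.97 CPM against 0.333, with a large gap between the descending libraries, and Dhrs3, which lowers retinaldehyde, read 91.9 and 77.8 against 35.5. Of 17 flanking genes outside the Hox clusters, 1 was higher and none lower in each class, a share near the 7.28% and 2.81% of all genes called higher in endothelium and fibroblasts: Skap1, a T cell adaptor gene near the Hoxb cluster, at 6.41 CPM against 0.384 and 0.569 in endothelium. T cell markers moved the same way there (61.1 CPM against 3.17 and 5.69), and their part in the Skap1 value was not tested. Of 25 other positional factors, 10 were higher and 3 lower in arch endothelium (7.28% and 5.92% of all genes). Nkx2-3, an endothelial homeobox factor, was lower at 49.3 CPM against 93.7 and 112. Hand2, a cardiac and pharyngeal arch factor, read 12.6 CPM against 3.27 and 1.25, and Dlx5, a pharyngeal arch factor, 55.7 against 20.9 and 24.8. Dlx6 (log2 fold change 1.80) and Tbx18 (1.17) were higher too. Pax9 was lower (-0.68), and Tbx1 (0.04) and Isl1 (0.16) did not pass.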

How the data were processed

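Single-cell RNA was measured in 4 libraries (6, 6 and 8 pooled mice for descending a, descending b and arch). The deposited values are UMI counts by gene and barcode that the authors made with Cell Ranger 2.1.2 on mm10 per the submitters' processing notes; strand use is not given in the sources used here. The files held 2095 to 9347 barcodes and 13181305 to 29370967 UMIs. Of the 39 mouse Hox genes, 1 is not reported here. The members and lists were chosen with earlier results of these data known.

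Barcodes needed 200 genes or more, and a mitochondrial share of UMIs up to 10%. Scrublet's automatic threshold called 2 to 23 barcodes, so the highest scores were removed instead at 0.8% per 1000 barcodes (42, 41, 58 and 593 removed), a choice made after those calls were seen. Cells were clustered with scanpy 1.11.5 (2000 variable genes without Hox genes or Hox noncoding transcripts, 30 components, 15 neighbours, Leiden resolution 1.0). A cluster was named when at least 3 listed markers were present. It stayed unnamed if markers of another class outnumbered its own among its leading genes. The same held if it was shallow and none of its own markers led. This left 3 clusters unnamed, although each carried at least 3 markers of a class. Counts were summed per library and class and tested with edgeR 4.0.16 (TMM, filterByExpr, quasi-likelihood, Benjamini-Hochberg, threshold 0.05), and with DESeq2 1.42.0 as an alternative. Arch and adventitia tests fitted all 4 libraries with 1 residual degree of freedom, and the spread was pooled over genes (infinite prior), so a lone library is assumed to vary like the descending ones. The scripts were tested on simulated data. Named genes are Hox genes with at least 10 UMIs in a class or past a test, and up to 5 per other list by lowest adjusted p. Hotairm1, Pax9, Tbx1, Isl1, and Meis2 in the intima, fall outside this rule and were chosen after their values were seen. Coordinates came from GENCODE M21. Classes need at least 20 cells in a library, and intervals are 95% exact with a floor of 3 counts.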

Additional observations from a re-analysis of the deposited data

How the results depend on the processing

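Of 734 alternative values of the 80 called Hox results, 569 kept the call, 73 kept the direction but missed the threshold, and none reversed. The other 92 had no adjusted p and kept their direction, 7 of them moving by more than the spread. The setting with most losses was DESeq2, with 31. In the counts below, the arch test in endothelium called 1714 genes in the fit reported, and 194 with DESeq2, 838 with a stricter cell filter (500 genes or more, mitochondrial share up to 5%), and 731 with classes clustered per library. The fibroblast arch test called 581, and 53 with DESeq2 and 241 without doublet removal, with 3 Hox genes lower under DESeq2. The fibroblast adventitia test called 2905, and 597 with DESeq2, with 0 Hox genes higher and 0 lower under DESeq2, and 1 higher without TMM factors or without doublet removal. The endothelial adventitia test called 5137, and 2300 with DESeq2; Hox genes higher were 1 with DESeq2 and 4 with no low-count filter or with only the 2 groups fitted, and Hox genes lower were 4 with DESeq2, 6 under the stricter cell filter and 7 with classes per library. The joint fit of both classes called 437, and 50 with DESeq2 and 199 without TMM factors.

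For fibroblasts against endothelium, leaving out 1 library gave 2 to 5 Hox genes higher and 7 to 13 lower. Without the replicate block there were 2 higher and 7 lower, and 11 lower for macrophages against endothelium. The block pairs classes of the same library. No paired analysis was possible for the arch and adventitia because the groups compared share fewer than 2 numbers. Leaving out a descending library from those tests leaves no residual degrees of freedom, so it gave values without a test. Descending endothelial Hox CPM was 642 and 610 under the stricter cell filter and 679 for descending a with classes per library. The percent of groups 9 to 13 was 19.2 and 17.8 under that filter, and the arch level was 279 with cells thinned. Under that filter a cluster led by Adra2a, with 238 and 193 cells of descending a and b, stayed unnamed and left the endothelial class. With classes per library an Adra2a-led cluster of 230 descending a cells did too. Their part in the lower values was not tested. Genes under 10 UMIs and the macrophage sums rest on few counts.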
